A study of Mus musculus with 76 samples.

Results

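The genes described here encode the proteasome, the protease complex that degrades proteins tagged with ubiquitin. They were measured in single macrophages of the mouse atrioventricular node, through which the electrical impulse passes from atria to ventricles. Members were all rows of the expression table whose symbol begins with Psm, a letter from a to g and a number. This rule found 47 of 9235 genes. Of these, 46 encode subunits, activators, an inhibitor or assembly chaperones of the complex. The remaining row, Psme2b-ps, is a near-identical copy of the activator gene Psme2.

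All libraries came from 1 group: untreated wild-type C57BL/6J mice, with no control or treated arm. Cells were sorted as high in CD45, CD11b and F4/80, low to intermediate in Ly6C and low in markers of lymphocytes, neutrophils and erythroid cells. Each of the 76 libraries held 1 cell captured on a microfluidic chip. Since animals, chips and batches are not named, the cells were treated as 1 sample. Values describe the spread between cells, with no test between groups. Neither ages nor the number of mice are given.

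The proteasome is built from a hollow core and caps that feed it. The core stacks rings of alpha subunits, which form the gate, around rings of beta subunits, some of which carry the proteolytic sites. In cells exposed to interferon, and in many cells of the immune system, the catalytic beta subunits Psmb5, Psmb6 and Psmb7 can be replaced by Psmb8, Psmb9 and Psmb10. The resulting immunoproteasome is known for producing peptides that are presented on MHC class I. The cap unfolds ubiquitin-tagged proteins with ATPase subunits (Psmc) and recognises and trims ubiquitin with non-ATPase subunits (Psmd). The activators Psme1 and Psme2 together form PA28, another complex that binds the ends of the core.

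The libraries held an estimated 259565 reads in the shallowest and 2124947 in the median library, and 2324 to 4382 genes above 0. Transcriptomes 13 and 19 were nearly identical (Pearson r = 0.978 of log2(CPM + 1), against at most 0.421 in any other pair) and were counted as 1 cell by their mean, which left 75 cells. Levels are counts per 1000000 (CPM), given as mean ± SD with n = 75. Detection is given at any value above 0 and at 10 CPM or more, which is at least 3 reads even in the shallowest library. A gene is called widespread where at least 38 cells, 50% of them, were above 0. Of 16 listed macrophage markers 15 had values, all of them were widespread, and 13 passed 10 CPM in 38 cells or more. For T or NK cells 1 of 7 listed markers had values, and its level was 0 in 68 cells. The single neutrophil and endothelial markers with values were each at 0 in 59 cells, the single fibroblast marker (Gsn) in 35, and the 3 B cell markers, mainly Ighm, summed to 0 in 3 cells and to a median of 216.5 CPM. The 2 monocyte markers with values summed to a median of 27.8 CPM and to at most 13014 CPM. Of these, Ccr2 was above 0 in 73 cells and at 10 CPM or more in 38. The 4 cardiomyocyte markers summed to 0 in 33 cells and to at most 821.8 CPM.

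The proteasome genes together took 0.480% ± 0.199 of all CPM, from 0.126% in the lowest to 1.12% in the highest cell. Their summed level was 4803 ± 1990 CPM, with a lowest cell at 1260 CPM, a median of 4444 CPM and a highest cell at 11234 CPM. No cell lacked them. Of the 47 members, 29 were widespread, as were 23.9% of all 9235 genes. At 10 CPM or more in as many cells the count was 5, Psma7, Psmb2, Psmb6, Psmb8 and Psme1, against 8.88% of all genes. A member was above 0 in a median of 44 cells and reached 10 CPM in a median of 25, against 20 and 9 over all genes. The table lists a gene only if it was above 0 in at least 6 libraries, so these shares are among genes that passed that filter. Psma8 and Psmb11, the alpha subunit of germ cells and the beta subunit of the thymus, are not analysed here.

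**Figure D1:**
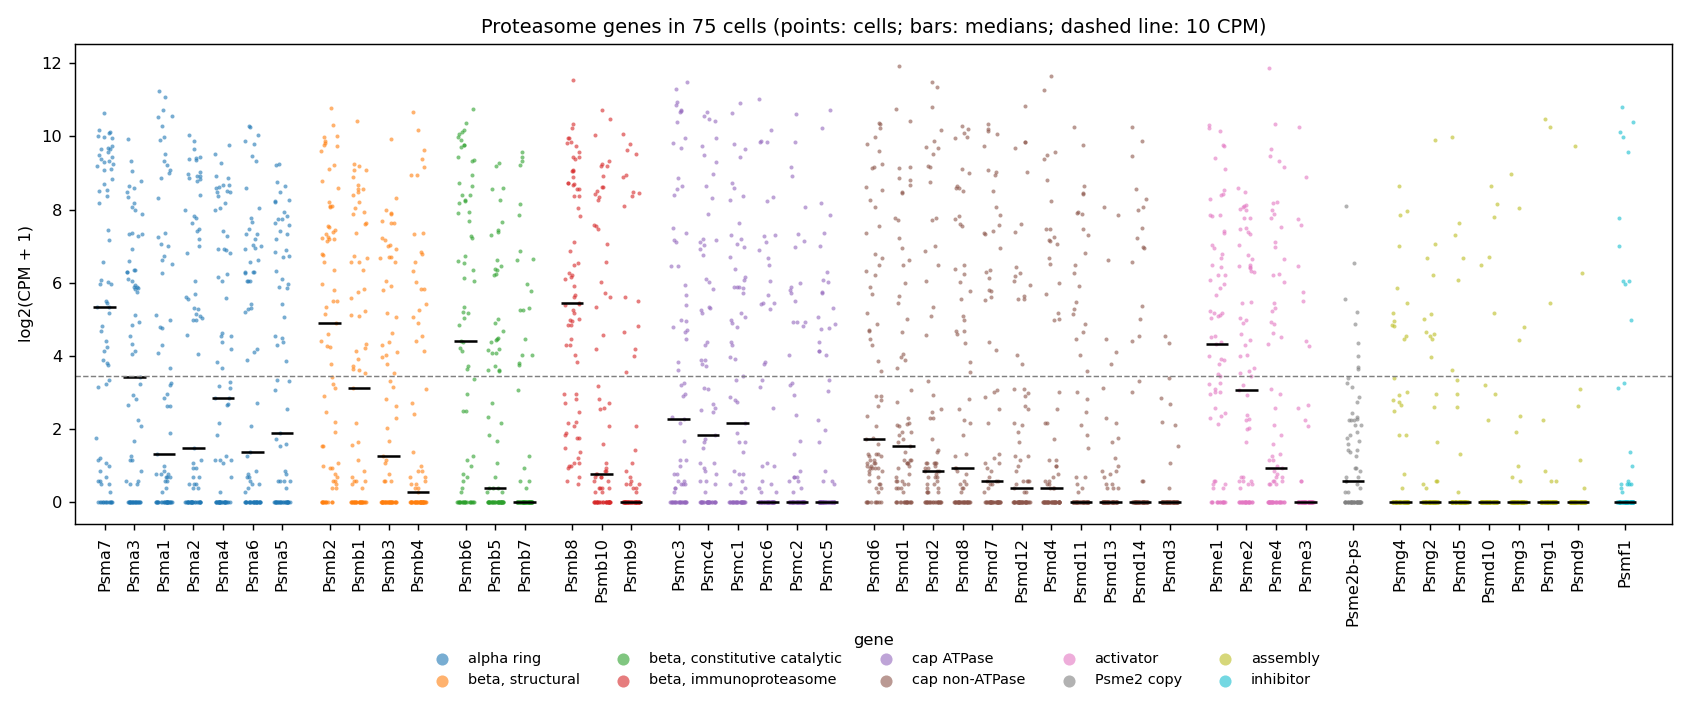
Level of each of the 47 proteasome genes in each of 75 cells, as log2(CPM + 1) on the vertical axis, with genes grouped and coloured by role. Points are cells, black bars are medians and the dashed line marks 10 CPM. The medians of Psma7, Psmb2, Psmb6, Psmb8 and Psme1 lie above the line, and most genes have cells at 0 beside cells far above it.

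All 7 alpha ring genes were widespread, in 48 to 62 cells each, and they summed to 1073 ± 856 CPM. Psma7 led, above 0 in 62 cells, or 82.7% (exact 95% Clopper-Pearson interval 72.2 to 90.4%), at 278 ± 389 CPM with a median of 39.7 and a highest cell at 1591. Psma3 was above 0 in 53 cells at 92.6 ± 172 CPM and Psma1 in 50 cells at 232 ± 513 CPM. Psma5 and Psma6 were above 0 in the fewest cells of the class, 48 each, at 80.2 ± 138 and 130 ± 284 CPM. The interval of Psma5, 52.1 to 74.8%, overlaps that of Psma7. Intervals treat cells as independent and leave out that genes were read in the same cells, so their overlap is no test between genes. One complex holds the alpha subunits in equal number, but within a cell their transcripts were patchy. A cell reached 10 CPM for a median of 3 of these 7 genes, all 7 reached it in 1 cell and none in 1 cell.

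The structural beta genes, which complete the ring without a proteolytic site, were also widespread. Psmb2 was above 0 in 63 cells, or 84.0% (73.7 to 91.4%), at 199 ± 353 CPM. Psmb1 was above 0 in 49 cells at 112 ± 220 CPM, Psmb3 in 44 at 54.8 ± 130 CPM and Psmb4 in 38 at 91.9 ± 268 CPM. The intervals of Psmb2 (73.7 to 91.4%) and Psmb4 (38.9 to 62.4%) do not overlap, which again is no test between the genes. The 4 genes summed to 458 ± 497 CPM and were all at 0 in 3 cells.

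Among the constitutive catalytic genes Psmb6, the subunit with caspase-like activity, was above 0 in 55 cells at 234 ± 387 CPM. Its median was 20.3 CPM and its highest cell reached 1711 CPM. Psmb5, with chymotrypsin-like activity, was above 0 in 42 cells at 50.1 ± 121 CPM, with a median of 0.300 CPM. Psmb7, with trypsin-like activity, was above 0 in 25 cells, or 33.3% (22.9 to 45.2%), at 51.0 ± 156 CPM, and was the only one of the 14 constitutive core genes that was not widespread. All of these 3 genes were at 0 in 9 cells.

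The immunoproteasome genes differed widely from each other. Psmb8 was above 0 in all 75 cells (lower bound 95.2%), which held for 146 of all 9235 genes, and averaged 267 ± 460 CPM. Its lowest cell had 0.400 CPM, its median cell 42.5 and its highest 3002. It was above 0 but below 10 CPM in 23 cells, at 10 CPM or more in 52, at 100 CPM or more in 28 and at 1000 CPM or more in 3. Psmb10 was above 0 in 49 cells, or 65.3% (53.5 to 76.0%), at 136 ± 311 CPM, and reached 10 CPM in 25 cells. Psmb9 was above 0 in 29 cells, or 38.7% (27.6 to 50.6%), at 79.1 ± 218 CPM, and reached 10 CPM in 17. For detection above 0 the intervals of Psmb8 and Psmb10 do not overlap, nor do those of Psmb10 and Psmb9. At 10 CPM or more the interval of Psmb8 (57.6 to 79.5%) stays apart from that of Psmb10 (22.9 to 45.2%). Those of Psmb10 and Psmb9 (13.8 to 33.8%) overlap at that level. Here too, overlap is no test between genes read in the same cells.

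Psmb8 and Psmb9 lie close to each other, with Tap1 between them, in the MHC region of mouse chromosome 17, each beside a subunit gene of the transporter that carries peptides to MHC class I. In the RefSeq order the genes are H2-DMb1, Psmb9, Tap1, Psmb8, Tap2 and H2-Ob. The 200 bases before the start of both proteasome genes are shown because their transcripts were detected so differently. They were read from RefSeq (GRCm38.p6, a later build than the mm9 of the expression table), at chr17:34197995-34198194 on the plus strand for Psmb8 and chr17:34187331-34187530 on the minus strand for Psmb9. Capitals mark matches to 4 motifs searched on both strands: TTCNNNGAA (gamma-activated sequence), the core of the interferon-stimulated response element, TGACNNNGC (core of the antioxidant response element) and CCAAT.
Psmb8: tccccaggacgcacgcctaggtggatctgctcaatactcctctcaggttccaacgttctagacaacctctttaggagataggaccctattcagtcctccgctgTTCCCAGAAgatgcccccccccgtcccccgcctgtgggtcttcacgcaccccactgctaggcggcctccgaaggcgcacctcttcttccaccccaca
Psmb9: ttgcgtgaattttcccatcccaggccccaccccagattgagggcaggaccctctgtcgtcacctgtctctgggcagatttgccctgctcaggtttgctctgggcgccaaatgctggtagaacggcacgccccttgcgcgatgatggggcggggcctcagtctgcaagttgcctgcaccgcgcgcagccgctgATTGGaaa
The Psmb8 window holds 1 match to TTCNNNGAA, which begins 97 bases before the start, and the Psmb9 window holds 1 match to CCAAT on the opposite strand. Promoters were found for 40 of the 47 members. TTCNNNGAA was present for 1 of these 40 genes and in 5.49% of all 32851 promoter windows of this length. The core of the interferon-stimulated response element was present for 3 genes (Psmb3, Psmd4 and Psmd9) and in 2.27% of windows, TGACNNNGC for 3 genes (Psmb5, Psmb6 and Psmd9) and in 8.60%, and CCAAT for 13 genes and in 29.3%. These are matches of letters and describe no binding.

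Each immunoproteasome gene was set against the constitutive gene whose place its product takes in the ring, within the same cell and per kilobase of mRNA. Psmb8 averaged 317 ± 547 CPM per kb and Psmb5 65.9 ± 159 CPM per kb, a ratio of means of 4.81. Psmb8 was higher in 58 cells and Psmb5 in 17. The opposite held for Psmb9, at 150 ± 412 CPM per kb, and Psmb6, at 294 ± 485 CPM per kb: Psmb9 was higher in 12 cells, Psmb6 in 52, and both were at 0 in 11. Psmb10 averaged 104 ± 237 CPM per kb and Psmb7 43.9 ± 134 CPM per kb, with Psmb10 higher in 39 cells, Psmb7 in 16, and both at 0 in 20. With the longest instead of the median annotated transcript, Psmb8 to Psmb5 was 2.94 and Psmb9 to Psmb6 was 0.199 in place of 0.509.

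**Figure D2:**
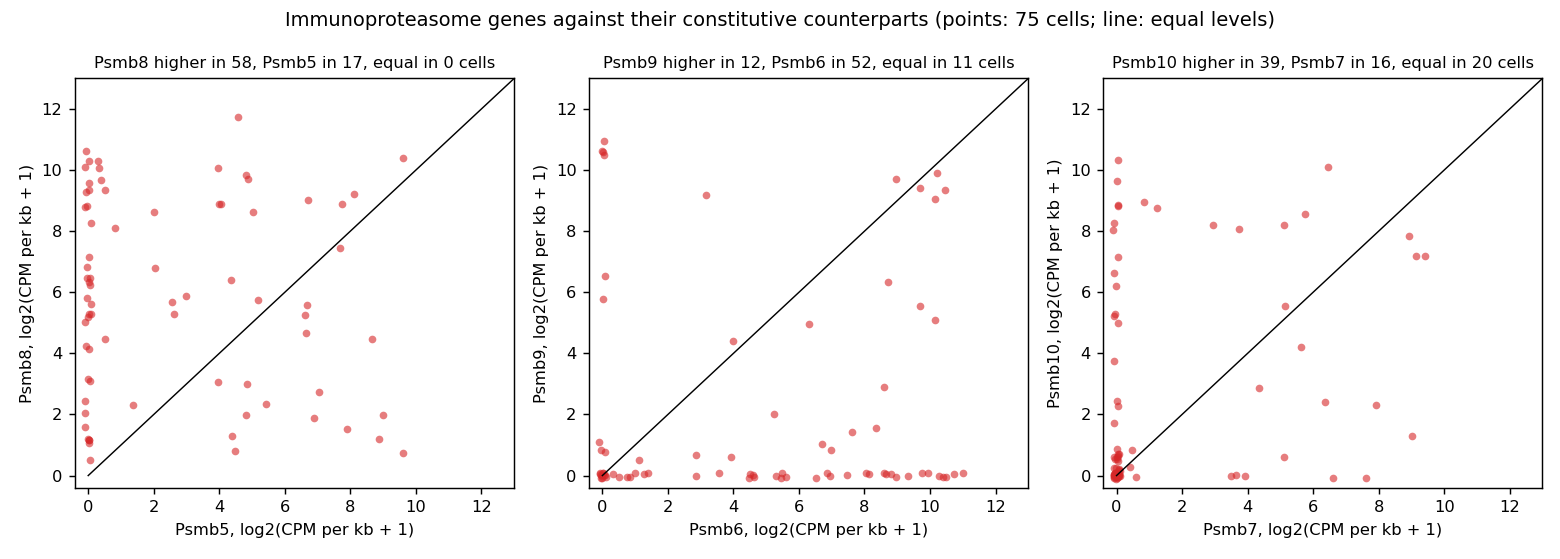
Each panel plots the level of an immunoproteasome gene (vertical) against its constitutive counterpart (horizontal) in 75 cells, both as log2(CPM per kb + 1), with small random shifts so that overlapping points show. The line marks equal levels. Psmb8 lies above the line in 58 cells, Psmb9 in 12 and Psmb10 in 39.

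Cells were also counted by which genes of a pair reached 10 CPM. For Psmb8 and Psmb5, 18 cells held both, 34 held Psmb8 alone, 12 held Psmb5 alone and 11 neither. For Psmb9 and Psmb6 the numbers were 10, 7, 33 and 25, and for Psmb10 and Psmb7 they were 9, 16, 10 and 40. Spearman's rho over cells was -0.0437 for Psmb8 and Psmb5, 0.0177 for Psmb9 and Psmb6 and 0.279 for Psmb10 and Psmb7.

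Summed over the 3 genes on each side, immunoproteasome transcripts averaged 571 ± 693 and constitutive catalytic transcripts 404 ± 569 CPM per kb. The immunoproteasome share of both sums had a median of 55.7% over cells, with quartiles at 26.6% and 98.0%, and was above 90% in 26 cells and below 10% in 11. In 9 cells the constitutive sum was 0 and Psmb8 above 0, so the share was 100% at any level of Psmb8. These cells ranged from transcriptome 39, with Psmb8 at 1.1 and Psmb9 at 0.4 CPM, to transcriptome 82, with 49.6 and 1075.4 CPM. The part of detection in these shares was not tested. The direction of the summed levels depended on the transcript length, since the ratio of the means was 1.41 with median and 0.829 with longest transcripts. By number of cells the immunoproteasome sum was higher in 44 of 75 with median and in 39 with longest transcripts.

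The 3 immunoproteasome genes had a mean pairwise rho of 0.0368, against 0.0139 over all pairs of the 8351 genes above 0 in at least 8 cells. Spearman's rho was -0.0705 for Psmb8 and Psmb9, 0.186 for Psmb8 and Psmb10 and -0.00452 for Psmb9 and Psmb10. At 10 CPM or more, 11 cells held Psmb8 and Psmb9, 20 held Psmb8 and Psmb10, 4 held Psmb9 and Psmb10, and 3 held all of them. None was at that level in 13 cells. With the neighbouring transporter gene Tap1, which was above 0 in 20 cells, rho was 0.267 for Psmb8 and 0.139 for Psmb9. Tap1 was at 10 CPM or more together with Psmb8 in 6 cells and with Psmb9 in 2. For Psmb8 and its other neighbour Tap2, which was above 0 in 9 cells, rho was -0.00137. Psmb8 was at 0 in no cell, whereas Psmb9 was at 0 in 46 cells and Psmb10 in 26.

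The ATPases of the cap fell into a widely and a sparsely detected set of 3 genes each. Psmc3 was above 0 in 53 cells at 280 ± 629 CPM, Psmc4 in 50 at 158 ± 372 CPM and Psmc1 in 49 at 120 ± 325 CPM. Psmc6 and Psmc2 were above 0 in 32 cells each and Psmc5 in 29, the fewest of the class, at 56.4 ± 238 CPM. A cell reached 10 CPM for a median of 2 of the 6, which in the complex form a single ring, and for all 6 in 1 cell.

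Among the 11 non-ATPase genes of the cap, 7 were widespread and none reached 10 CPM in 38 cells. Psmd6 was above 0 in 65 cells at 143 ± 315 CPM, but only 30 cells reached 10 CPM and its median was 2.3 CPM. Psmd1, a scaffold of the cap, was above 0 in 58 cells at 151 ± 520 CPM, and Psmd2, another scaffold, in 53 at 190 ± 526 CPM. Psmd4, a receptor for ubiquitin, was above 0 in 38 cells, and Psmd14, the enzyme that removes ubiquitin chains before degradation, in 20 at 64.9 ± 202 CPM. Psmd3 was above 0 in the fewest, 10, and its highest cell had 22.2 CPM. The other genes of the class were above 0 in 46 cells (Psmd8), 44 (Psmd7), 40 (Psmd12), 33 (Psmd11) and 22 (Psmd13).

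The activators showed a similar range. Psme1 was above 0 in 61 cells, or 81.3% (70.7 to 89.4%), at 138 ± 283 CPM with a median of 19.0 and a highest cell at 1266. Psme2 was above 0 in 53 cells at 58.4 ± 95.4 CPM with a median of 7.40 and a highest cell at 383. Both reached 10 CPM in 24 cells, Psme1 alone in 20, Psme2 alone in 12 and neither in 19, and their rho over cells was 0.0997. Psme4, a large nuclear activator, was above 0 in 48 cells at 134 ± 473 CPM, of which the 5 highest cells held 71.3%. Psme3, which forms another nuclear activator, was above 0 in 15 cells at 31.2 ± 154 CPM.

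Psme2b-ps was above 0 in 42 cells at 8.35 ± 33.7 CPM and reached 10 CPM in 9. Its values have to be read together with those of Psme2. In GENCODE transcripts the coding sequences of both genes are 720 bases long and differ at 5 positions, an identity of 99.3%. Of the 671 stretches of 50 bases in the copy, 69.6% occur unchanged in Psme2. The 90 coding bases that hold the most differences, 3 of the 5, are shown. They are bases 454 to 543 counted from the first base of the start codon. Only coding bases were compared, and the share of reads that can tell the genes apart was not estimated. Capitals mark the bases that differ.
Psme2: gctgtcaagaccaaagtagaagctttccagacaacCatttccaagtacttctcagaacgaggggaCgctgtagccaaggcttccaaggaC
Psme2b-ps: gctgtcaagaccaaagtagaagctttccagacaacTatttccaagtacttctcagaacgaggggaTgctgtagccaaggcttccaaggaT
In the 36 cells with Psme2 at 10 CPM or more, the copy was above 0 in 34 and its level was a median of 2.78% of that of Psme2. The 2 exceptions with the copy higher were transcriptome 23, with 42.8 CPM for Psme2 and 274 for the copy, and transcriptome 64, with 15.2 and 92.1 CPM. In the 39 cells with Psme2 below 10 CPM the copy was above 0 in 8 and reached 10 CPM in 4. Spearman's rho between the genes was 0.706, the highest of the 990 pairs of members tested, and 0.0809 with values below 10 CPM set to 0. How reads that match both genes were counted is not stated, so Psme2 and Psme2b-ps are both uncertain to that extent.

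**Figure D3:**
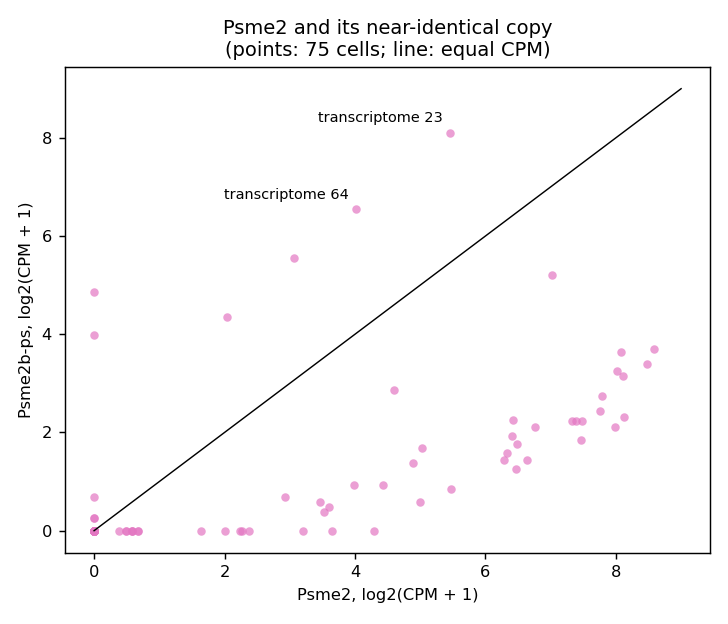
Level of Psme2b-ps (vertical) against Psme2 (horizontal) in 75 cells, both as log2(CPM + 1), with a line at equal CPM. Most cells with Psme2 lie along a band far below the line, at a median of 2.78% of Psme2 in the 36 cells with Psme2 at 10 CPM or more. The copy was higher in 9 of all 75 cells, of which transcriptomes 23 and 64 are labelled.

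The assembly chaperones, which help the rings and the cap to form and then leave, were the most sparsely detected class. None of the 7 was widespread, and all were at 0 in 23 cells. Psmg4 was above 0 in 23 cells at 17.6 ± 61.3 CPM, Psmg2 in 18 at 19.4 ± 113 CPM and Psmd5 in 11 at 20.7 ± 119 CPM. Psmd10 and Psmg3 were above 0 in 9 cells each, Psmg1 in 7 and Psmd9 in 6. The inhibitor gene Psmf1 was above 0 in 22 cells, or 29.3% (19.4 to 41.0%), at 87.9 ± 314 CPM, of which the 5 highest cells held 91.1%.

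Some proteins that work with the proteasome have names outside the rule. Of 17 listed symbols 13 had values and 3 were widespread, a share close to that of all genes. These were Shfm1, a small subunit of the cap, in 70 cells at 254 ± 261 CPM, Pomp, the chaperone of the core, in 65 at 215 ± 306 CPM, and Zfand5, which binds the cap, in 58 at 293 ± 520 CPM. Shfm1 was thus detected in more cells than any Psmd gene, and Pomp in more cells than any of the 7 chaperones named by the rule. The ubiquitin receptor Adrm1 was above 0 in 27 cells. Ubb, which encodes ubiquitin, was above 0 in all 75 cells, at 727 ± 407 CPM. Of the factors that regulate proteasome genes, Nfe2l1 was above 0 in 41 cells at 43.5 ± 194 CPM. Nfe2l2 was above 0 in 71 cells at 481 ± 741 CPM, and Ddi2, the protease that activates the Nfe2l1 protein, in 38.

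In no cell were all constitutive subunit genes detected. Of the 31 genes of the constitutive core and cap, a cell was above 0 for 10 to 28, with a median of 18, and at 10 CPM for 3 to 24, with a median of 11. Of the 14 constitutive core genes a median of 6 reached 10 CPM. All 14 reached it in transcriptome 73, with 974659 estimated reads, and 0 in transcriptome 78, with 948227. These cells had 3790 and 2983 genes above 0. Over the 75 cells, the number of core genes at 10 CPM had a rho of 0.546 (Pearson r = 0.588) with the number of genes above 0 and of 0.213 with estimated reads. Counted above 0 instead, the rho with estimated reads was 0.392 for the 14 core genes and 0.382 for the 31 core and cap genes. For the number of immunoproteasome genes at 10 CPM, rho with genes above 0 was 0.0747. The part of detection in these counts was not tested.

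**Figure D4:**
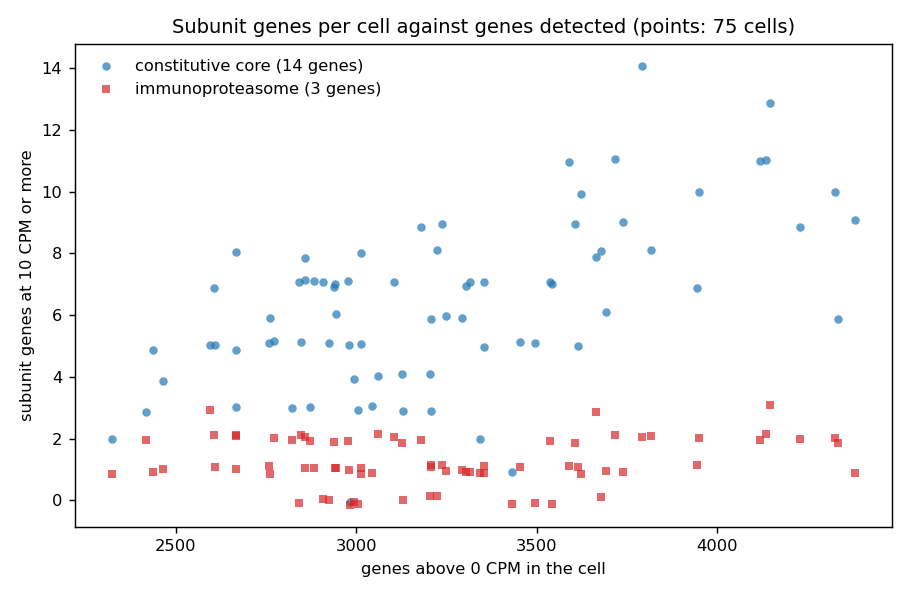
Number of subunit genes at 10 CPM or more (vertical, with small random shifts) against the number of genes above 0 CPM (horizontal) in 75 cells. Circles count the 14 constitutive core genes, which range from 0 to 14 with a median of 6, and squares the 3 immunoproteasome genes, which range from 0 to 3 with a median of 1.

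Among constitutive subunit genes the mean pairwise rho was 0.0629 for the 31 genes of core and cap, 0.0598 for the alpha ring, 0.180 for the 3 constitutive catalytic genes, 0.0877 for the cap ATPases and 0.0607 for the cap non-ATPases. All genes gave 0.0139. For comparison it was 0.0765 for cytosolic ribosomal protein genes, 0.0652 for nuclear-encoded respiratory chain genes, 0.0261 for mitochondrial ribosomal protein genes and 0.375 for MHC class II genes. The MHC class I genes gave 0.0540. Of the 990 pairs among the 45 members above 0 in at least 8 cells, 64.3% had a rho above 0 and the median was 0.0536. Beside Psme2 and its copy, no pair exceeded 0.361. The next highest were Psmb10 and Psmd14 (0.361), Psmb7 and Psme2b-ps (0.360), Psmc4 and Psmd2 (0.357), Psmb6 and Psmc3 (0.352) and Psmb6 and Psmb7 (0.348). The lowest was Psmb9 and Psmc3 at -0.351. All such values come from points that share a library's depth and its number of detected genes.

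To compare classes with antigen presentation and interferon genes, each list was scored in each cell by the mean of its standardised log2(CPM + 1) values over members above 0 in at least 8 cells. The MHC class I list included the protein folding genes Canx, Pdia3 and Calr, above 0 in 75, 74 and 71 cells. Its transporter genes Tap1 and Tap2 were above 0 in 20 and 9. The part of the folding genes in the correlations with this list was not tested. The constitutive proteasome score, over the 31 core and cap genes, had a rho of 0.602 with the number of genes above 0 (r = 0.639, and r = 0.599 without the 2 cells farthest from the median score). The immunoproteasome score had a rho of 0.0865 with that number (r = 0.191), which was -0.172 in the 38 cells at or below the median number (gene-poor) and 0.515 in the 37 others (gene-rich). The score of Psme1 and Psme2 had one of 0.0825 (r = 0.124). Other correlations are therefore also given for gene-poor and gene-rich cells.

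The immunoproteasome score was close to uncorrelated with the MHC class II and the interferon gamma genes over all cells. Its rho was 0.0173 with the MHC class II score (r = -0.0213, and -0.0230 without 2 cells) and 0.000626 with the interferon gamma response score (r = -0.0127, and 0.0429 without 2 cells). In gene-poor and gene-rich cells rho was -0.224 and 0.213 with MHC class II and -0.168 and 0.174 with the interferon gamma response. With interferon alpha/beta response genes rho was 0.202 (r = 0.135, and 0.207 without 2 cells), and with MHC class I genes 0.234 (r = 0.195, and 0.226 without 2 cells). By summed CPM in place of scores, these values were 0.0344 and 0.0946. With summed markers of cell types, the rho of the immunoproteasome score was 0.255 for macrophages (0.453 in gene-poor and 0.0799 in gene-rich cells), 0.222 for cardiomyocytes (0.418 and 0.0739) and -0.284 for the T or NK cell marker Lck, which was above 0 in 7 cells (-0.432 and -0.147). For B cells it was 0.160, for monocytes -0.143, for endothelium -0.0899, for neutrophils -0.0757, for fibroblasts 0.0540 and for dendritic cells -0.0107. The part of these markers in its other correlations was not tested. The interferon alpha/beta list was led by Ifi203, above 0 in 62 cells, Rtp4 in 60, Oas2 in 56 and Ifi204 in 54. The interferon gamma list was led by Gbp7 in 62 cells, Irf1 in 61, Irf8 in 39 and Gbp3 in 36. Of 28 listed interferon alpha/beta genes 22 had values, and a member was above 0 in a median of 28 cells. Of 21 listed interferon gamma genes 15 had values, with a median of 15 cells, against 20 over all genes.

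For single genes, rho with the MHC class II score was -0.0791 for Psmb8, 0.120 for Psmb9 and 0.0483 for Psmb10. With the interferon gamma score the same genes gave -0.0476, 0.0439 and 0.000211. Psmb10 had a rho of 0.258 with the interferon alpha/beta score, Psmb8 0.0931 and Psmb9 -0.0640. Psme1 had a rho of 0.253 with MHC class II and Psme2 0.112.

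**Figure D5:**
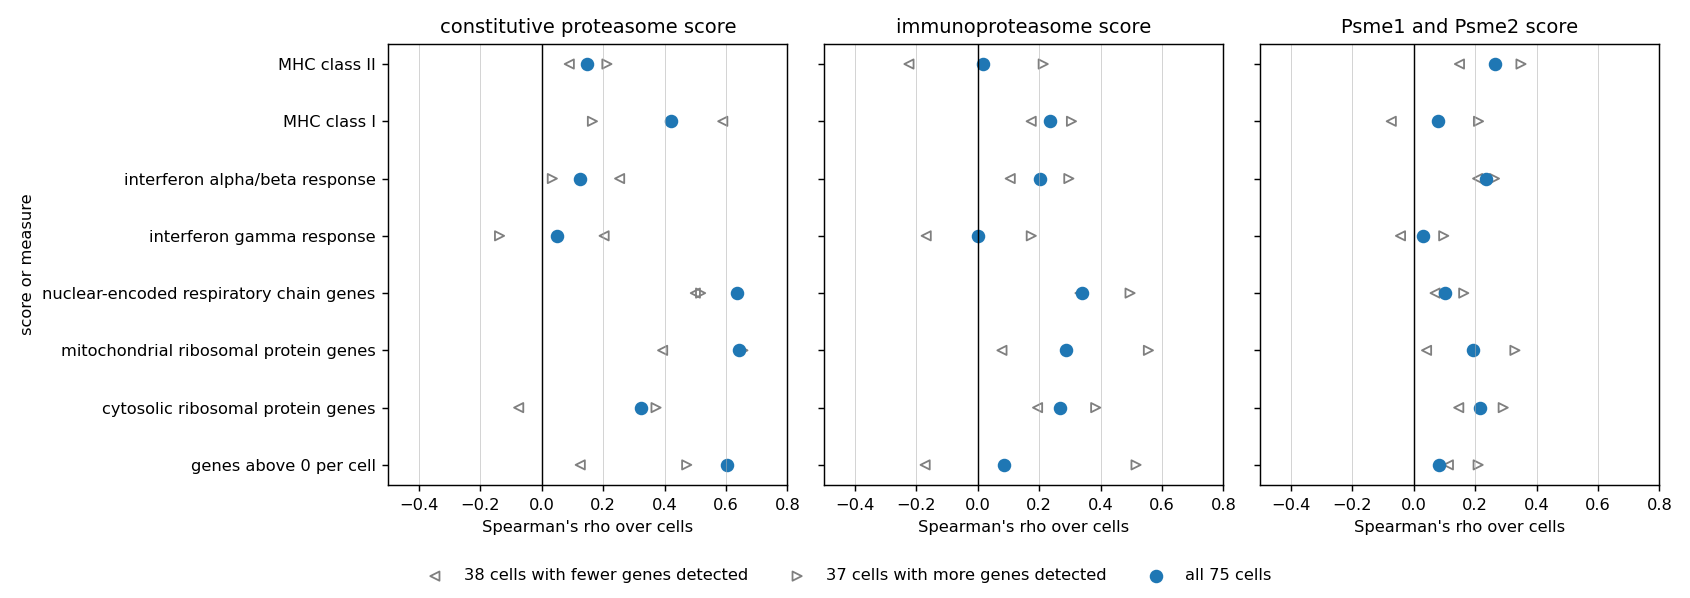
Spearman's rho over cells (horizontal) between 3 proteasome scores (panels) and other list scores or the number of genes above 0 (vertical). Filled circles are all 75 cells, left and right triangles the gene-poor and gene-rich cells. The constitutive score lies at 0.602 with genes above 0 per cell, and the immunoproteasome score lies near 0 with MHC class II and interferon gamma response genes.

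The PA28 score, of Psme1 and Psme2, had a rho of 0.265 with MHC class II (r = 0.251, and 0.241 without 2 cells; 0.149 and 0.349 in gene-poor and gene-rich cells). It was 0.236 with the interferon alpha/beta score, 0.0303 with the interferon gamma score and 0.278 with the immunoproteasome score (r = 0.226). Its rho with the summed dendritic cell markers, of which 6 of 10 had values and which ranged from 0 to 7031 CPM with a median of 14.9, was 0.187. The part of these markers in the correlation with MHC class II was not tested.

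With other housekeeping machinery the rho of the constitutive score was 0.641 with mitochondrial ribosomal protein genes (r = 0.671, and 0.631 without 2 cells) and 0.636 with respiratory chain genes (r = 0.672, and 0.656 without 2 cells). In gene-poor and gene-rich cells these were 0.394 and 0.655, and 0.500 and 0.517. With cytosolic ribosomal protein genes rho was lower, at 0.323 (r = 0.372, and 0.443 without 2 cells), and was -0.0752 in gene-poor and 0.372 in gene-rich cells. With MHC class I genes rho was 0.420 (r = 0.373, and 0.323 without 2 cells), 0.589 in gene-poor and 0.165 in gene-rich cells. It was 0.146 with MHC class II, 0.125 with interferon alpha/beta, 0.0494 with interferon gamma and 0.218 with the immunoproteasome score. The alpha ring and structural beta scores had a rho of 0.372 with each other, whereas the immunoproteasome and cap ATPase scores had one of -0.111.

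Gene by gene, the 45 members had correlations of both signs with each immune list. With MHC class II 29 of 45 had a rho above 0, with a median of 0.0505, where 50.1% of 8341 genes outside the list did, with a median of 8.37e-05. With interferon alpha/beta genes 29 did (median 0.0356), against 55.6% of all genes, and with interferon gamma genes 22 did (median -0.00389), against 58.9%. With MHC class I 34 did (median 0.0956), against 67.1%, led by Psmd7, a subunit of the lid of the cap, at 0.404. With the number of genes above 0, 40 of 45 had a rho above 0 (median 0.173), against 80.9% of all genes and a median of 0.113.

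Among the 2209 widespread genes outside the score, those most like the immunoproteasome score over the 75 cells were Papola, a polymerase of messenger RNA tails (rho = 0.432), the transcription factor Foxp1 (0.405), the lysosomal GTPase Arl8b (0.392) and the amyloid precursor gene App (0.392). Nup85, Acaa2, Fkbp2, Gm4902, Vdac3 and Gm6368 followed, down to 0.357, and Gm6368 reached 10 CPM in 0 cells. The lowest were Mtr (-0.397), Mll2 (-0.393) and Ctsl (-0.341). No gene of the MHC class II, MHC class I or interferon lists was among these. Those lists held only 7 (MHC class II), 8 (MHC class I), 8 (interferon alpha/beta) and 3 (interferon gamma) widespread genes. Their absence from so short a selection therefore carries little weight. Among the 2188 widespread genes outside the constitutive score, those most like it were Sdf2l1 (0.559), Myeov2 (0.462), Tspo (0.460), Actb (0.455) and the deubiquitinase gene Otub1 (0.447), then Vps29, Cdv3, Cox7a2, Ran and Idh1, down to 0.423. The lowest were Hpgd (-0.422), Tmem176b (-0.369) and Mef2c (-0.354). The median over all genes compared was 0.0430 for the immunoproteasome and 0.0926 for the constitutive score.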

How the data were processed

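Single-cell RNA was amplified with SMARTer chemistry and made into Nextera XT libraries, per the labels' protocols; there are no molecular identifiers, so amplified copies count separately, and intervals cover the sampling of cells only. Strand is not kept, so reads of overlapping antisense genes cannot be told apart. Values of 9235 genes were deposited by the authors as counts per 1000000 (CPM) to 1 decimal. The tools listed in the submitters' processing notes are STAR (2.3.0) and HTSeq (0.6.0), with mm9 as build; which annotation was used, and how reads with several matches were treated, is not stated there.

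The reads per library were estimated from the CPM of 1 read, the step of which low values (up to 60 steps) are whole multiples within 0.051 CPM; 99.3% of values in the poorest library matched. In 9 libraries the step was below 0.25 CPM and the estimate is coarse. Symbols were matched to GENCODE M21 without regard to case. Lengths were the median of a gene's protein-coding transcripts there.

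Members and lists were chosen with earlier results of these data known. Genes described in full are the catalytic beta genes, Psme1, Psme2 and, per class, the 3 members above 0 in the most cells and the 1 in the fewest; per other list, the 4 above 0 in the most cells; and the 10 highest and 3 lowest correlations with a score. A selection is printed, and other members were named after their values were seen. Correlations over cells are descriptions without p-values. Scores used a pseudocount of 1. Functions were tested on simulated data. Python 3.11.15, numpy 2.4.6, pandas 2.3.3, scipy 1.17.1 and Biopython 1.88 were used. Doublets were not called.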

Additional observations from a re-analysis of the deposited data

How the results depend on the processing

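No paired analysis was possible because the series has a single group. Of 161 recomputed values for 37 results, 136 stayed within the spread allowed (1 SD over cells, 1.5 times a count or ratio, or 0.116 for a correlation over 75 cells), 24 moved and 1 changed direction. Counting all 76 libraries, a pseudocount of 10, no filter on low members and leaving out the 2 farthest cells moved none of the values recomputed under them. Some of the 136 could not have moved. A mean pairwise rho does not depend on the pseudocount, and the filter removed no member of the MHC lists or of the proteasome scores compared with them. A median in place of a mean always lies within 1 SD of it. At 10 CPM the number of members in at least 50% of the cells was 5 in place of 29, and with values below 10 CPM set to 0 Psmb10 exceeded Psmb7 in 21 cells in place of 39. With the longest transcripts the ratio of the summed immunoproteasome to constitutive catalytic level was 0.829 in place of 1.41, that of Psmb8 to Psmb5 2.94 in place of 4.81, and that of Psmb9 to Psmb6 0.199 in place of 0.509; not divided by length the last was 0.337. The cause of these shifts is the length each gene is given.

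In cells with fewer genes detected, rho moved to 0.589 for the constitutive score with MHC class I, 0.254 with interferon alpha/beta and 0.203 with interferon gamma genes, to -0.224 and -0.168 for the immunoproteasome score with MHC class II and interferon gamma genes, and to -0.0734 for the PA28 score with MHC class I. In cells with more genes detected the corresponding values were 0.165, 0.0344 (within the spread), -0.138, 0.213, 0.174 and 0.211. With summed CPM in place of scores, rho was 0.228 for the constitutive and 0.0946 for the immunoproteasome level with MHC class I, 0.0344 for the immunoproteasome with interferon alpha/beta, and 0.140, -0.0848 and 0.0667 for PA28 with MHC class II, MHC class I and interferon alpha/beta genes. The cause was not tested. The correlation of Psme2 with its copy, 0.706, was 0.0809 with values below 10 CPM set to 0, a setting chosen after seeing the data. A member at 0 in a cell was not detected there and is not shown to be absent.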
